A study of Mus musculus with 11 samples.

Results

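The 3 Wt1-high ovary lines were F364 ROV, F326 ROV, and F319 ROV, out of 11 cell lines established from OvTrpMyc mice. They were selected on their measured Wt1 level: among the first 7 libraries of the series, a line counted as Wt1-high at 50 CPM or more, where CPM is the count of a gene divided by the total of its library and scaled to 1000000. The other 4 lines of those libraries (F326 splenic tumor, F364 LOV, F361 peritoneal tumor, and F318 ROV) are called Wt1-low here. ROV and LOV stand for right and left ovary.

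All 11 lines carried the genotype Ovgp1-Trp53-R270H-Myc. The transgene was placed in 1 endogenous Trp53 allele of mice on a C57BL/6Tc background backcrossed to C57BL/6J, so all groups started from cells lacking that normal allele. The Ovgp1 promoter, active in the secretory epithelium of the oviduct, drives a dominant-negative p53 together with MYC. By the study's genotyping the cultured lines had also lost the wild-type allele. In the study's RNA reads, F361 tumor cells no longer showed the mutant p53, although reads covered the mutated codon. Cells were minced from the ovary with its oviduct, from the middle of the uterus, or from a visible tumor, and were grown without treatment in RPMI 1640. Ages of the mice were not given in the sources used here. Each line was sequenced once, so the replicates were lines, and p-values measured the spread between lines of different mice and organs. Mice F364 and F326 each gave 1 line on either side of the threshold, and the other 3 lines of the comparison came from a mouse each. In libraries 8 to 11, F318 LOV and F319 uterus came from the mice of F318 ROV and F319 ROV.

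WT1 is a zinc finger transcription factor of the embryonic gonadal ridge, the mesothelium, the kidney podocyte, and, in the adult ovary, the granulosa and surface cells. It is needed for the formation of the gonads and kidneys, and it acts on both sides of the transition between epithelial and mesenchymal states. In human pathology it is a marker of serous carcinoma of the ovary and tube and of mesothelioma.

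Wt1 lies on chromosome 2 of GRCm38 (chr2:105126529-105173616, + strand). F364 ROV had 65.6 CPM of it (1035 counts, 95% Wilson interval 61.8 to 69.8), F326 ROV 67.2 CPM, and F319 ROV 72.7 CPM. Of the Wt1-low lines, F364 LOV had 5.70 CPM (90 counts) and F318 ROV 4.57 CPM, F326 splenic tumor had 2 counts, and F361 peritoneal tumor had 0, with a floor of 0.221 CPM at 3 counts and an upper Wilson limit of 0.283 CPM. The member just inside the threshold was therefore F364 ROV and the line just outside it F364 LOV, from the opposite ovary of the same mouse. In libraries 8 to 11, F318 LOV had 5.85 CPM, and F339 ROV and both uterus lines had 0 counts. These values chose the groups and are given as a description, and Wt1 was left out of every count that follows. The intervals cover counting error only.

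**Figure D1:**
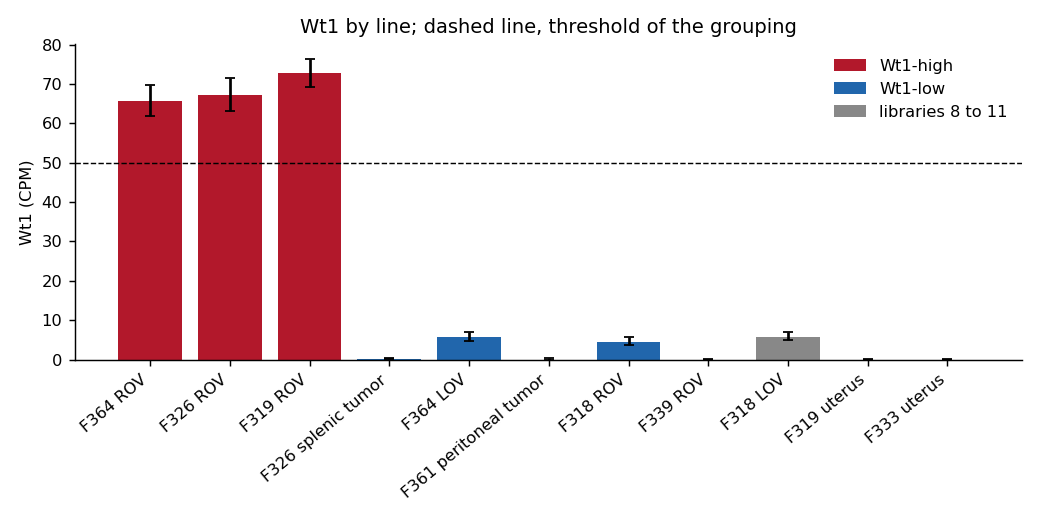
Wt1 level in CPM (vertical axis) of each of the 11 lines, with 95% Wilson intervals of counting error as bars; the dashed line marks the 50 CPM that set the groups. The 3 Wt1-high lines lie between 65.6 and 72.7 CPM, and no other line exceeds 5.85 CPM.

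Apart from Rcn1, the neighbors of Wt1 had few reads. The antisense gene Wt1os (chr2:105076538-105126510, - strand), which runs away from the start of Wt1 on the opposite strand, had 22 counts in F364 ROV, 10 in F326 ROV, 37 in F319 ROV, 10 in F364 LOV, and 0 in the 3 remaining Wt1-low lines. The strand setting of the counting was not stated, so whether reads of Wt1 entered the Wt1os count is not known. Wt1os stayed in the counts that follow, as 1 of the genes higher in all Wt1-high lines. On the far side, the thioesterase gene Them7 had 4 counts in all Wt1-low lines together and 0 in the Wt1-high lines. Rcn1, which encodes a calcium-binding protein of the endoplasmic reticulum, ranged from 16.9 to 61.2 CPM in the Wt1-high lines and from 18.3 to 168 CPM in the Wt1-low lines, so the groups overlapped. Of the small RNA genes before Wt1, Gm27308 had 2 counts in F319 ROV and 0 in the other 6 lines of the comparison. Gm27715, Gm27538, Gm27636, 4930527A07Rik, and Pax6os1 were not analysed here.

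The 7 libraries held 13580525 to 22333181 counts, and the whole series up to 27044598. Genes of adult muscle fiber took 11.4% to 12.5% of the counts in the Wt1-high lines and 6.84% to 12.7% in the Wt1-low lines, against 0.148% to 1.15% in libraries 8 to 11. Y-linked genes summed to 128 to 162 CPM in the Wt1-high and 131 to 174 CPM in the Wt1-low lines, although the lines came from female organs. Both sets of transcripts were thus present on both sides of the threshold. When these genes were left out before library sizes were taken, edgeR again called 0 genes, with 350 at an unadjusted p under 0.05. Of cell types that could be mixed into such cultures, 9 of 9 endothelial, 8 of 10 leukocyte, and 8 of 8 adipocyte markers passed the filter on low counts. Their summed levels overlapped between the groups, from 276 to 435 CPM against 138 to 506 CPM for the endothelial list, from 70.3 to 95.6 against 49.5 to 128 CPM for the leukocyte list, and from 573 to 1293 against 639 to 2496 CPM for the adipocyte list. No member of these 3 lists separated the groups, where 1.41% of all genes did so on the higher and 0.701% on the lower side, so a count of 0 is near the background. In bulk samples, fewer cells of a type and less RNA per cell cannot be told apart.

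Across the genome, 0 of 15553 genes tested were called at an adjusted p of 0.05 when edgeR compared the 3 Wt1-high with the 4 Wt1-low lines (0%). At an unadjusted p under 0.05 there were 352 genes, or 2.26%, below the nominal 5%. limma-voom also called 0, with 308 genes at an unadjusted p under 0.05. DESeq2, which tested 18314 genes, called 52 higher (0.284%) and 33 lower (0.18%) in the Wt1-high lines. Of these 85 genes, 71 were among those edgeR tested, and 56 of the 71 did not overlap between the groups. Counted directly, 220 genes (1.41%) had all 3 Wt1-high lines above all 4 Wt1-low lines, and 109 (0.701%) had them all below. The split between higher and lower rested on single lines, with 428 higher and 450 lower without F319 ROV, 398 and 369 without F364 LOV, 816 and 697 without F361 peritoneal tumor, and 776 and 169 without F318 ROV. In ovary lines alone it was 1612 higher and 1971 lower. All 3 Wt1-high lines came from the ovary, whereas the Wt1-low lines included a splenic and a peritoneal tumor. Wt1 level and organ therefore cannot be fully told apart in the comparison of all these lines. With 3 lines against 4, the exact two-sided permutation test of a single gene cannot give a p below 0.0571. About that share of genes would separate, in either direction, if the groups did not differ. The shares of 1.41% and 0.701% together lie below it, so no difference between the groups is read from these counts.

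The 12 genes named on the higher side were the non-overlapping genes with a mean of at least 5 CPM and the smallest unadjusted p. None was called by edgeR, and all 12 had an adjusted p under 0.05 in DESeq2. DESeq2 used the same counts on which these genes were chosen, so its calls are no independent support. The genes were Crb2, Myrf, Upk3b, Dsg2, Tmem184a, Gm26809, Lsr, Pag1, Frmd4b, Adgrg6, Sorcs2, and Dhh. Of these, Crb2, Upk3b, Dsg2, and Tmem184a passed the filter on low counts mainly through the Wt1-high lines and so had to differ. Their fold changes and p-values are a description only.

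Crb2, an apical polarity protein of the Crumbs family that is also required in podocytes, came first. It had 8.50 CPM in F364 ROV, 8.81 in F326 ROV, and 24.8 in F319 ROV, against 0.127 in F326 splenic tumor, 0 in F364 LOV, 0.147 in F361 peritoneal tumor, and 0.114 in F318 ROV. The 4 Wt1-low lines held 6 counts of it together. The log2 fold change was 7.04 (SE 0.72, edgeR adjusted p = 0.0921), or 6.44 without F319 ROV. DESeq2 gave an adjusted p of 1.675e-14. With so few counts in the Wt1-low lines, and named for its lack of overlap, Crb2 had to differ, and nothing is read from these values. The gene starts on chromosome 2 at 37776249 and was above all 8 other lines of the series.

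Myrf encodes a membrane-bound transcription factor known from myelination and from the development of the mesothelium-lined body cavities. Its level was 55.5, 65.1, and 143 CPM in F364, F326, and F319 ROV, respectively, and 4.30, 4.75, 0.295, and 4.91 CPM in F326 splenic tumor, F364 LOV, F361 peritoneal tumor, and F318 ROV. The log2 fold change was 4.58 (SE 0.73, edgeR adjusted p = 0.512). This gene was not particular to the Wt1-high lines, since F333 uterus reached 126 CPM.

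Upk3b, a uroplakin of the mesothelial surface, varied most among the Wt1-high lines of the 12 genes, with 16.5 CPM in F364 ROV, 5.48 in F326 ROV, and 246 in F319 ROV. The Wt1-low lines ranged from 0 in F364 LOV to 0.685 CPM in F318 ROV. Dsg2, a desmosomal cadherin, was instead lowest in F319 ROV among the Wt1-high lines, with 37.3 CPM in F364 ROV, 25.1 in F326 ROV, and 1.48 in F319 ROV, against 0 to 0.457 CPM in the Wt1-low lines. Lsr, a component of tricellular tight junctions, was likewise at 15.0, 20.2, and 1.39 CPM in these 3 lines against 0.633 to 1.03 CPM. F319 ROV thus lay only just above the Wt1-low lines for Lsr, while it was the highest line for Upk3b.

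The membrane protein gene Tmem184a was also lowest in F319 ROV of the Wt1-high lines (17.2, 29.2, and 0.985 CPM against 0.114 to 0.506 CPM). Dhh, the hedgehog ligand of Sertoli, granulosa, and Schwann cells, had 6.85 CPM in F364 ROV, 33.7 in F326 ROV, and 2.33 in F319 ROV, against at most 1.58 CPM in the Wt1-low lines. Its log2 fold change was 3.92 (SE 0.89), and 2.28 without F326 ROV. F326 ROV was the highest line for Dhh and for the long noncoding RNA Gm26809, which had 21.5, 44.5, and 13.8 CPM against 3.90 to 8.45 CPM.

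The remaining 4 included 3 whose Wt1-high lines lay close together. Pag1, an adaptor that anchors the kinase CSK at the membrane, had 15.3 to 25.7 CPM against 4.43 to 8.48 CPM (21.5 ± 5.52 against 5.76 ± 1.86 CPM, mean ± SD, n = 3 and 4). Frmd4b, a FERM domain scaffold of epithelial junctions, had 18.8 to 32.7 against 4.75 to 9.87 CPM. Adgrg6, an adhesion receptor coupled to G proteins, had 11.6 to 16.7 against 1.69 to 5.89 CPM. Sorcs2, a sorting receptor, spread more widely, with 7.99, 14.1, and 51.8 CPM against 2.14 to 6.62 CPM, and its groups nearly met.

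**Figure D2:**
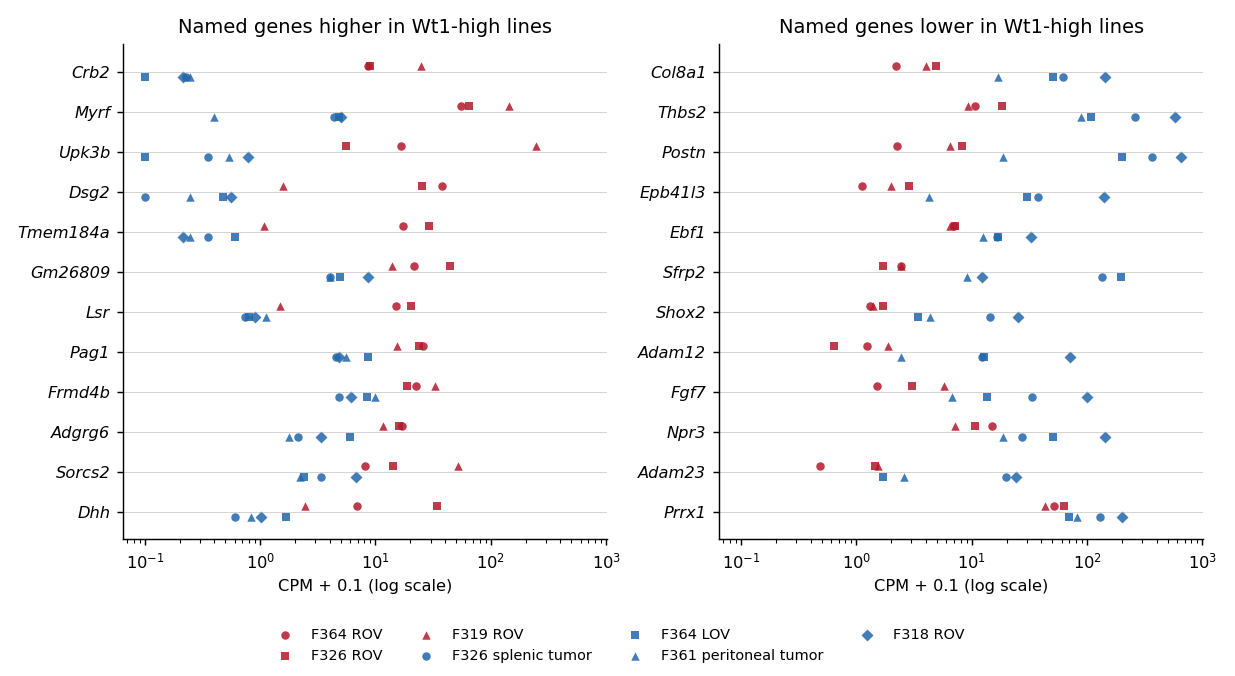
Levels of the 12 named higher and 12 named lower genes (vertical axis) in the 7 lines, on a log axis of CPM + 0.1; each symbol is 1 line. All red symbols (Wt1-high) lie to one side of all blue symbols (Wt1-low), as the rule for naming required, and F319 ROV is the lowest red symbol for Dsg2, Tmem184a, and Lsr but the highest for Crb2, Myrf, and Upk3b.

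The sequences before the start sites of 4 of these genes are shown because WT1 is known to bind GC-rich motifs. They are the 250 bases upstream, from RefSeq on GRCm38.p6, 5′ to 3′ on the strand of the gene, with capitals for any match to GCGTGGG or GCGGGGG on either strand. The regions are chr2:37775999-37776248 (+) for Crb2, chr5:136038246-136038495 (+) for Upk3b, chr10:14545037-14545286 (-) for Adgrg6, and chr15:98898541-98898790 (-) for Dhh.
Crb2: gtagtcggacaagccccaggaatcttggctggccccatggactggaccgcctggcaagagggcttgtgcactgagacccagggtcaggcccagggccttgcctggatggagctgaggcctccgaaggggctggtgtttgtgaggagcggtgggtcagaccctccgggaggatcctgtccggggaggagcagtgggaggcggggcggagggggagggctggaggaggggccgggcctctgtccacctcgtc
Upk3b: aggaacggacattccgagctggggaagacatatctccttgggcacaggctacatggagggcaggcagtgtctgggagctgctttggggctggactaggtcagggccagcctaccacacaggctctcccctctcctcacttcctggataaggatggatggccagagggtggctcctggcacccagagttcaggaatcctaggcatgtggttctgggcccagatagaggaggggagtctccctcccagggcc
Adgrg6: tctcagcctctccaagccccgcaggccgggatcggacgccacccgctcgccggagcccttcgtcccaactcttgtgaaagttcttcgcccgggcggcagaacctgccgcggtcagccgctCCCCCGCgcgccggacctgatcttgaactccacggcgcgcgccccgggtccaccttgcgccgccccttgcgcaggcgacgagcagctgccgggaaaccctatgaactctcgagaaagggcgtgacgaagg
Dhh: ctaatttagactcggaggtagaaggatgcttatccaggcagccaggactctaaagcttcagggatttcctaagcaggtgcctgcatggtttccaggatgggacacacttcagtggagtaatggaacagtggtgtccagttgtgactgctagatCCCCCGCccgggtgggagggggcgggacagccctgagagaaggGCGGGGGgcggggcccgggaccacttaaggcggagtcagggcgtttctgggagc
Crb2 and Upk3b held neither motif in this window, Adgrg6 held GCGGGGG 1 time, and Dhh 2 times. Of all 32851 promoters in the table, 4.3% held GCGTGGG, 9.63% GCGGGGG, and 13% either. The 12 higher genes had 10 promoters of 7 genes in the table, of which 3 held GCGGGGG and 0 GCGTGGG. The 12 lower genes had 15 promoters of 11 genes, of which 3 held GCGGGGG and 1 GCGTGGG. Both shares rest on very few promoters, and a match is a run of letters, not evidence of binding.

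The 12 genes named on the lower side, by the same rule, were Col8a1, Thbs2, Postn, Epb41l3, Ebf1, Sfrp2, Shox2, Adam12, Fgf7, Npr3, Adam23, and Prrx1. DESeq2 called 11 of them, all but Prrx1, and edgeR none. These calls too rest on the counts that chose the genes.

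Col8a1, a short-chain collagen of basement membranes, had 2.09 CPM in F364 ROV, 4.81 in F326 ROV, and 3.90 in F319 ROV, against 61.5 in F326 splenic tumor, 50.4 in F364 LOV, 16.8 in F361 peritoneal tumor, and 144 in F318 ROV. The groups were separate, with a log2 fold change of -4.18 (SE 0.66, edgeR adjusted p = 0.512). Thbs2, a matricellular thrombospondin, had 9.18 to 18 CPM against 87.6 to 576 CPM (log2 fold change -4.27, SE 0.69, and -3.68 without F318 ROV). Postn, the matricellular protein periostin of activated fibroblasts, had 2.16, 8.15, and 6.36 CPM against 367, 202, 18.4, and 657 CPM (log2 fold change -5.76, SE 1.12). F318 ROV was the highest and F361 peritoneal tumor the lowest of the Wt1-low lines for all 3 genes.

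The same 2 lines marked the ends of the Wt1-low range for other members. Epb41l3, a membrane skeleton protein, had 1.02 to 2.74 CPM in the Wt1-high lines against 4.2 CPM in F361 peritoneal tumor and 140 CPM in F318 ROV. Adam12, a metalloprotease of mesenchymal cells, had 0.534 to 1.79 against 2.36 and 71.6 CPM, and Fgf7, a fibroblast growth factor that acts on epithelium, 1.40 to 5.69 against 6.63 and 99.9 CPM. Adam23, a non-catalytic relative of Adam12, had 0.381 to 1.43 CPM against 1.58 to 23.9 CPM, and here F364 LOV was the lowest of the Wt1-low lines. Sfrp2, a secreted Wnt modulator, was highest in the other 2 Wt1-low lines, with 196 CPM in F364 LOV and 135 in F326 splenic tumor. It had 1.60 to 2.35 CPM in the Wt1-high lines.

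Transcription factors were also among the lower genes. Ebf1, a factor of B cells and of stromal progenitors, varied little among the Wt1-high lines, at 6.98, 7.08, and 6.31 CPM, against 12.4 to 32.3 CPM (6.79 ± 0.41 against 19.4 ± 8.79 CPM, mean ± SD, n = 3 and 4). Prrx1, a homeodomain factor of mesenchyme, had 43.0 to 62.6 against 69.7 to 202 CPM, the smallest fold of the 12 (log2 fold change -1.17, SE 0.35). Shox2, a homeodomain factor of limb and heart development, had 1.21 to 1.60 against 3.29 to 24.8 CPM. The natriuretic peptide clearance receptor Npr3 had 7.12 to 14.8 against 18.4 to 142 CPM.

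Libraries 8 to 11 took no part in the choice of the lines or in the fit, and none of their Wt1 levels reached the threshold. Over the whole series, 79 genes (0.508%) were higher in the 3 Wt1-high lines than in all 8 others, and 47 (0.302%) were lower than in all 8. Of the 12 named higher genes, 7 were among the first (Crb2, Upk3b, Dsg2, Gm26809, Lsr, Frmd4b, and Dhh). Of the 12 named lower genes, 9 were among the second, all but Sfrp2, Fgf7, and Adam23. Postn reached 972 to 2419 CPM and Thbs2 621 to 2576 CPM in libraries 8 to 11, above every library of the first 7. The Wt1-low lines thus lay below libraries 8 to 11 for both genes as well. A list of mesenchymal genes likewise summed to 23310 to 42440 CPM in libraries 8 to 11 and to at most 18610 CPM in the first 7.

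Mice F364 and F326 allowed the Wt1-high line to be set against a Wt1-low line of the same mouse. On log2(CPM + 1), 181 genes (1.16%) were at least 2-fold higher in the Wt1-high line of both pairs, 176 (1.13%) were at least 2-fold lower in both, and 149 went in opposite directions. The counts depend on the pseudocount, with 365 higher and 367 lower at 0.1 CPM and 63 higher and 69 lower at 5 CPM. The F364 pair, which compares both ovaries of 1 mouse, differed by 2-fold in 1034 genes, and the F326 pair, which compares an ovary with a splenic tumor, in 3569. All 12 named higher genes and 9 of the 12 named lower genes passed 2-fold in both pairs. These genes were chosen on the same libraries, so direction and size in the pairs are a description only. Among all non-overlapping genes, 55 of 220 higher and 17 of 109 lower did so. For Postn the difference was -6.01 in F364 and -5.33 in F326, and for Dsg2 it was 4.79 and 4.71, whereas Prrx1 differed by -0.44 and -1.03. With mouse as a block, which leaves only these pairs to estimate the difference, edgeR called 0 genes.

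**Figure D3:**
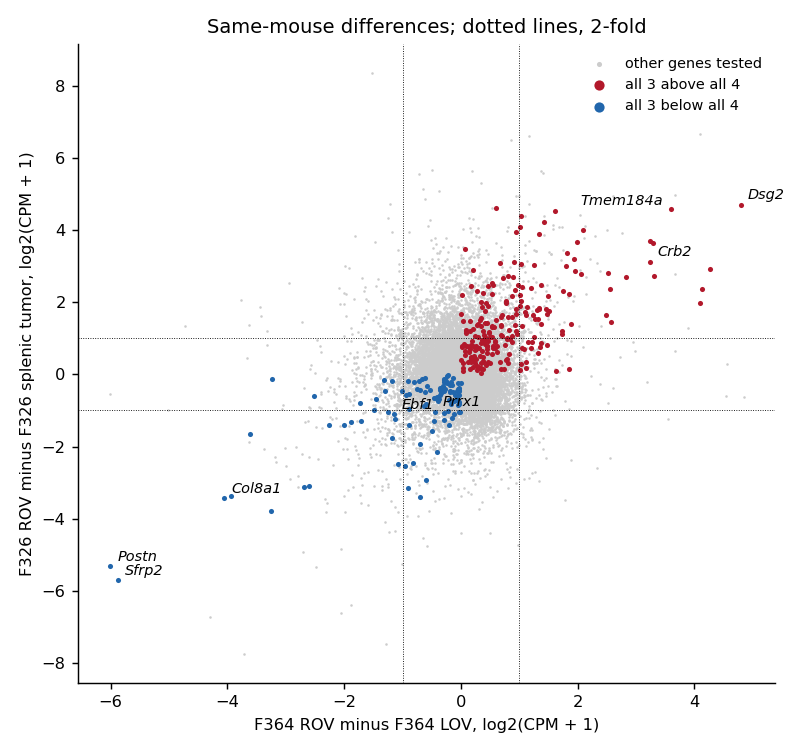
Difference on log2(CPM + 1) between F364 ROV and F364 LOV (horizontal axis) and between F326 ROV and F326 splenic tumor (vertical axis) for the 15553 genes tested; colored points are the genes whose 3 Wt1-high lines lie above or below all 4 Wt1-low lines, and dotted lines mark 2-fold. Postn and Sfrp2 lie at the lower left and Dsg2 at the upper right, more than 4 log2 units from 0 in both mice.

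The summed level of mesothelial and ovarian surface markers was highest in F319 ROV. Of 17 markers, 10 passed the filter on low counts, with a median log2 fold change of 4.30, against -0.03 over all genes tested. Some of the 10, such as Upk3b and Rspo1, passed mainly through the Wt1-high lines and so had to differ, and the median describes only the markers that passed. In 4 of them, Upk3b, Ezr, Gpm6a, and Rspo1, all Wt1-high lines lay above all Wt1-low lines, and in 0 the reverse (1.41% and 0.701% of all genes). The same limit holds for this count, since Upk3b, Gpm6a, and Rspo1 were all under 1 CPM in the Wt1-low lines, so nothing is read from it about the list. Ezr, the ezrin linker between microvilli and actin, had 120, 60.3, and 559 CPM in F364, F326, and F319 ROV, respectively, against 10.4 to 57.7 CPM. Gpm6a, a membrane glycoprotein of neurons and mesothelium, had 1.65, 1.47, and 31.0 CPM against 0.228 to 0.736 CPM. Rspo1, a Wnt agonist that directs ovary formation, had 1.78, 1.87, and 24.5 CPM against 0 to 0.633 CPM.

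The list was carried largely by F319 ROV. Its members summed to 1431 CPM in F319 ROV, 192 in F364 ROV, and 78.9 in F326 ROV, against 17.7 to 78.6 CPM in the Wt1-low lines. Msln, the mesothelial surface protein mesothelin, had 130 CPM in F319 ROV, but 3.04 in F364 ROV and 0.668 in F326 ROV, the last below F318 ROV at 2.91 CPM. Upk1b (161 CPM), Lrrn4 (81.3 CPM), Bnc1 (21.4 CPM), and the keratin gene Krt8 (52.7 CPM) were also high in F319 ROV and no higher than 2.92 CPM in any other of the 7 lines. Upk1b, Lrrn4, and Bnc1 did not pass the filter, which asks for counts in at least 3 lines. Krt18, the keratin partner of Krt8, was high in F319 ROV (67.9 CPM) and in F364 ROV (39.9 CPM) but at 0.668 CPM in F326 ROV. Its DESeq2 adjusted p was 0.0096 although the groups overlapped.

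Granulosa and gonadal markers were distributed in another way. Gata4, a factor of gonadal somatic cells, had 72.9 CPM in F364 ROV and 89.4 in F326 ROV but 9.76 in F319 ROV, against 0, 39.6, 0, and 2.74 CPM in F326 splenic tumor, F364 LOV, F361 peritoneal tumor, and F318 ROV. Nr5a1, the steroidogenic factor SF-1, had 18.6 and 38.4 CPM in F364 ROV and F326 ROV, 0.358 in F319 ROV, and 14.4 in F364 LOV. Foxl2, the factor that maintains granulosa identity, had 7.23 and 7.55 CPM in the same pair of lines and 0.716 in F319 ROV, against 0 to 2.74 CPM in the Wt1-low lines. Star, which carries cholesterol into mitochondria, had 48.7 CPM in F326 ROV and between 1.77 and 8.88 CPM in the other 6. F364 ROV and F326 ROV were thus above the Wt1-low lines for Gata4, Nr5a1, and Foxl2, and F319 ROV was not. These genes were picked after their values were seen, and their lists did not follow them. The granulosa list summed to 131 CPM in F364 ROV, below F364 LOV (179 CPM) and F318 ROV (168 CPM), and to 231 CPM in F326 ROV. Of the gonadal ridge factors, 7 had a positive and 7 a negative fold change.

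None of the 10 granulosa, theca, and steroidogenic genes tested separated the groups (median 0.66). With 1.41% of all genes higher and 0.701% lower without overlap, a count of 0 or 1 in lists of this size is near the background. Among the defining genes, Cyp17a1 and the receptor gene Lhcgr had at most 0.147 CPM in the 7 lines, and Cyp11a1 was highest in a Wt1-low line, F364 LOV, at 11.5 CPM. Of the 14 gonadal ridge factors tested (median 0.06), 1 separated the groups, against 1.41% of all genes: Emx2, a homeodomain factor needed for the urogenital system, had 18, 24.2, and 20.6 CPM against 1.77 to 10.5 CPM. It was higher still in libraries 8 to 11, from 30.2 to 203 CPM. Wnt4, a ligand of ovary development and the Müllerian duct, had 53.4 to 123 CPM against 39.7 to 81.7 CPM and overlapped.

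**Figure D4:**
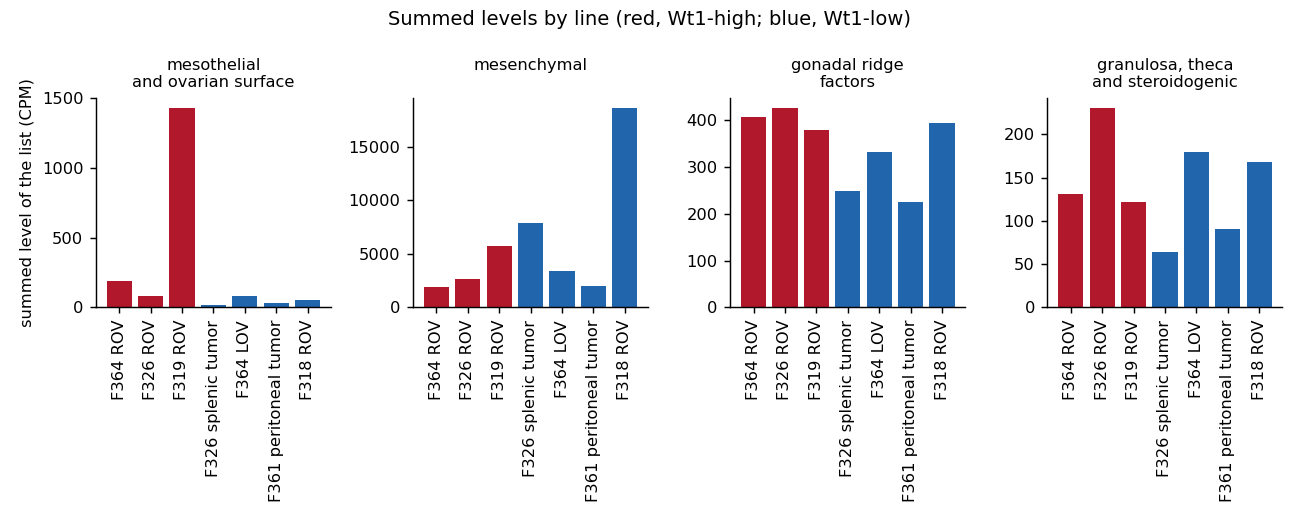
Summed CPM of 4 marker lists (vertical axes, each from 0 on its own scale) in each of the 7 lines, with Wt1-high lines in red and Wt1-low lines in blue. The mesothelial list is at 1431 CPM in F319 ROV and at most 192 CPM elsewhere, whereas the granulosa list is highest in F326 ROV at 231 CPM.

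Mesenchymal genes had a median of -1.46 over 21 tested members, of which 16 had a negative and 5 a positive fold change. Postn, Prrx1, and Twist2 (3 of 21, with 0.701% over all genes) had all Wt1-high lines below all Wt1-low lines. Twist2 passed the filter mainly through the Wt1-low lines and so had to differ. Twist2, a basic helix-loop-helix factor of mesenchyme, had 0.19, 0.134, and 0.313 CPM against 0.633 to 7.14 CPM. The fibrillar collagen gene Col1a2 had 11.8, 317, and 64.7 CPM against 132 to 3672 CPM and overlapped, as did the receptor gene Pdgfra (10.02 to 20.9 against 14.8 to 163 CPM). Vim, the intermediate filament vimentin, did not separate the groups (628 to 1030 against 214 to 1280 CPM), nor did Dcn (250 to 323 against 160 to 304 CPM) or Zeb1 (55.5 to 70.1 against 59.5 to 82.4 CPM). The summed list was 1878, 2630, and 5740 CPM in the Wt1-high lines and 1965 to 18610 CPM in the Wt1-low lines.

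Of 10 epithelial genes tested (median 0.93), none separated the groups. Cdh1, E-cadherin, had 1.21 to 3.68 CPM against 0.127 to 3.04 CPM, and Epcam was at most 0.401 CPM in the Wt1-high lines. Cdh3, P-cadherin, had 42.3 CPM in F364 ROV and 82.6 in F319 ROV but 1.87 in F326 ROV, below the 3.83 CPM of F318 ROV. Its DESeq2 adjusted p was 0.00144. A list of 47 polarity and junction genes, written after the values of the named genes were seen and thus no independent count, had 38 members tested and 13 with all Wt1-high lines above, with a median of 0.39 (1.41% of all genes were higher without overlap). Some of the 13, such as Crb2, Dsg2, and Cgn, passed the filter mainly through the Wt1-high lines, and nothing is read from this count. Beside Crb2, Dsg2, and Lsr these included Inadl, Pard6b, Cgn, Magi3, Plekha7, Shroom2, Shroom3, Camsap3, and Celsr1. Cgn, the tight junction protein cingulin, had 11.3, 6.01, and 9.81 CPM against 0 to 1.14 CPM. Shroom3, which drives apical constriction, had 131, 132, and 96.2 CPM against 1.33 to 56.4 CPM. The summed polarity and junction list overlapped, from 1203 to 1350 CPM in the Wt1-high and 683 to 1358 CPM in the Wt1-low lines, highest in F364 LOV. Of its tested members, 31 had a positive and 7 a negative fold change.

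**Figure D5:**
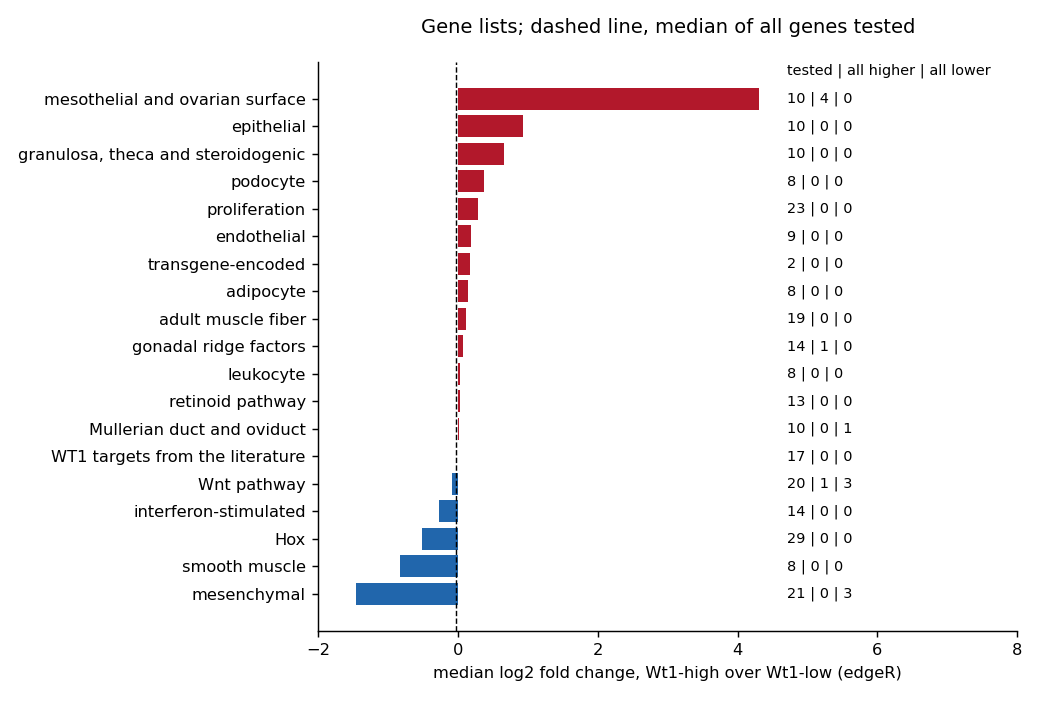
Median edgeR log2 fold change (horizontal axis) of the tested members of 19 gene lists (vertical axis), with, at the right, how many members were tested and how many had all 3 Wt1-high lines above or below all 4 Wt1-low lines. The mesothelial list stands at 4.30 and the mesenchymal list at -1.46, and the list of WT1 targets at 0.00 lies beside the dashed median of all genes. The mesothelial median covers only the 10 of 17 markers that passed the filter, some of them mainly through the Wt1-high lines. The summed level of that list was carried largely by F319 ROV.

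Genes known from the literature as WT1 targets had no common direction. Of 21, 17 were tested, 8 with a positive and 9 with a negative fold change (median 0.00), and 0 separated the groups, which is near the background of 1.41% higher and 0.701% lower over all genes. Podxl, the podocyte sialomucin podocalyxin, had 28.7, 56.6, and 94.5 CPM against 5.51, 12.6, 39.5, and 22.3 CPM, with only F361 peritoneal tumor inside the Wt1-high range. Sulf1, a heparan sulfatase, had 38.2 to 75.1 CPM against 8.61 to 45.6 CPM, with only F318 ROV inside it. Amhr2, the receptor of anti-Müllerian hormone, was highest in F326 ROV (45.5 CPM) and F361 peritoneal tumor (34.6 CPM). Spry1, an inhibitor of receptor tyrosine kinase signaling, had 19.9 to 35.2 against 23.7 to 49.3 CPM, and Igf1r 25.6 to 45.8 against 19.5 to 116 CPM. The podocyte list had 8 members tested, a median of 0.37, and 0 that separated the groups.

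The Müllerian duct and oviduct list, which covers the tissue in which the Ovgp1 promoter is active, had 10 members tested and a median of 0.01. Ovgp1 itself had 4.50, 1.002, and 4.08 CPM against 1.25 to 6.52 CPM. The progesterone receptor gene Pgr was the only tested member that separated the groups (1 of 10, with 0.701% of all genes lower without overlap). It passed the filter through the Wt1-low lines alone, so nothing is read from this count. It had 2 counts in F364 ROV (0.127 CPM) and 0 in the other Wt1-high lines, against 2.15, 12.8, 0.736, and 0.571 CPM in F326 splenic tumor, F364 LOV, F361 peritoneal tumor, and F318 ROV. Pax8, a marker of tubal epithelium, did not pass the filter. It had 3.05 CPM in F319 ROV, 0.127 and 0.134 CPM in F364 ROV and F326 ROV, and 0 counts in the Wt1-low lines.

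In the Wnt pathway, 20 genes were tested with a median of -0.09, of which 1 was higher (Rspo1) and 3 lower (Sfrp2, Rspo2, and Dkk2) in all Wt1-high lines (1.41% and 0.701% of all genes). Rspo1 and Rspo2 passed the filter mainly through the group in which they were higher and so had to differ. Rspo2, an agonist related to Rspo1, had 0, 0.134, and 0 CPM against 11.01, 0.633, 1.47, and 1.37 CPM. Dkk2, a Wnt antagonist, had 2.28 to 4.31 CPM against 5.82 to 21.0 CPM. Axin2, a target of canonical Wnt signaling, had 23.2, 10.6, and 6.0 CPM against 6.39 to 12.7 CPM and did not separate the groups. Lgr5, a receptor of R-spondins that did not pass the filter, had at most 0.801 CPM in the Wt1-high lines and 0 counts in the Wt1-low lines.

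In the other lists, no tested gene separated the groups, again near the background of 1.41% and 0.701%. The medians were 0.02 for the retinoid pathway (13 tested), -0.51 for the Hox genes (29), 0.29 for proliferation genes (23), -0.27 for interferon-stimulated genes (14), -0.84 for smooth muscle genes (8), 0.12 for adult muscle fiber (19), and 0.18, 0.02, and 0.14 for the endothelial, leukocyte, and adipocyte lists. The retinoid enzyme gene Aldh1a1 had the highest level of its list, with 259 to 482 CPM against 141 to 370 CPM. Hoxc10 led the Hox genes, with 71.2 to 87.4 against 51.9 to 105 CPM. Of the smooth muscle genes, Actg2, a gamma actin, had 0.801 to 7.21 CPM against 6.70 to 359 CPM and was called by DESeq2 (adjusted p = 0.0418), with F361 peritoneal tumor below F319 ROV. The replication helicase gene Mcm7 had 35.6 to 80.1 against 14.8 to 74.3 CPM, and Mki67, a marker of cycling cells, 33.9 to 64.7 against 3.24 to 122 CPM. Stat2, a mediator of interferon signaling, had 5.07 to 14.9 against 7.47 to 22.9 CPM.

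Of the transgene-encoded genes, Trp53 had 14.6, 19.5, and 23.1 CPM in F364, F326, and F319 ROV, respectively, against 10.4 to 25.8 CPM. Myc had 53.3, 31.9, and 55.3 CPM against 6.92 to 93.6 CPM. Neither separated the groups, and the counts do not tell the mutant from the wild-type Trp53 or the transgenic from the endogenous Myc.

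The Wt1-high lines were not each other's nearest neighbors. On the Euclidean distance of log2(CPM + 1) over the 15553 genes, the 3 pairs of Wt1-high lines lay 91.4 to 96.3 apart (mean 94.1), and the 12 pairs across the threshold 72.4 to 131 apart (mean 105). The 6 pairs of Wt1-low lines lay 101 to 155 apart (mean 120). The nearest line of F364 ROV was F364 LOV from the same mouse, at 72.4. F326 ROV was nearest to F361 peritoneal tumor, at 81.4, and F319 ROV to F318 ROV, at 86.6. The nearest line of every Wt1-high line was therefore a Wt1-low line.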

How the data were processed

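The authors deposited 1 table of raw counts per gene symbol for 11 polyA RNA libraries, 1 per line. Paired-end reads had been aligned with RNA STAR to GRCm38 (mm10), duplicates removed with SAMtools RmDup, and reads counted with featureCounts. The strand setting and versions were not stated. Duplicate removal limits the counts of very abundant genes.

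The table held 28284 genes. CPM were taken from library totals of 13580525 to 27044598 counts, for which 3 counts, taken as the floor, correspond to 0.111 to 0.221 CPM. A count of 0 does not exclude a level of about that size. The 3 Wt1-high lines were tested against the 4 Wt1-low lines with edgeR 4.0.16 (TMM, filterByExpr, quasi-likelihood F test, SE taken from the fold change and F, Benjamini-Hochberg) in R 4.3.3, with DESeq2 1.42.0 and limma-voom (limma 3.58.1) as alternatives. The study names no such test. The scripts were tested on simulated data. Pairs and distances used log2(CPM + 1).

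Named genes were, for each direction, the 12 with the largest fold change among genes with an edgeR adjusted p under 0.05 and no overlap, filled by the smallest unadjusted p among non-overlapping genes with a mean of at least 5 CPM. As no gene qualified, all 24 came from the second step. Added to these were Wt1 with its neighbors, list members that were called or did not overlap (otherwise those with the highest level), Trp53, and Myc. Other list members were chosen after their values were seen. The lines, lists, and tests were chosen with earlier results of these data known. Gene positions are those of GENCODE M21, and promoters of 18 of the 24 named genes were matched by symbol in RefSeq. Alternatives covered the normalization, filter, tool, lines, mouse, muscle and Y-linked genes, and pseudocount. No fit was made between single organs, and mutant alleles were not analysed here.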

Additional observations from a re-analysis of the deposited data

Results flagged for a closer look

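Among the 4 Wt1-low lines, Myrf stood apart in F361 peritoneal tumor at 0.295 CPM, against 4.30 to 4.91 CPM in the other 3. With 24 named genes examined in this way, about 1 in 20 would be picked out by chance.

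Some of the named higher genes were as high in libraries 8 to 11, whose Wt1 was at most 5.85 CPM, as in at least 1 Wt1-high line. Sorcs2 was so in all 4, at 84.8 CPM in F339 ROV, 108 in F318 LOV, 13.3 in F319 uterus, and 34.4 in F333 uterus. F339 ROV had 35.3 CPM of Pag1 and 73.0 of Adgrg6, above all 3 Wt1-high lines. F333 uterus had 126 CPM of Myrf and 1.67 CPM of Tmem184a, the latter above F319 ROV alone.

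Some of the named lower genes were low in these libraries too. Sfrp2 was at 0.786 CPM in F318 LOV, 1.18 in F319 uterus, and 0.371 in F333 uterus, although F339 ROV had 338.6 CPM. Adam23 was at 0.314 CPM in F339 ROV, 0.222 in F319 uterus, and 0.186 in F333 uterus. Fgf7 was at 1.53 CPM in F339 ROV.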

How the results depend on the processing

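Of 42 non-overlapping genes followed over 694 combinations of gene and alternative, 0 changed direction, which the rule that chose them fixes for the most part, and 37 passed an adjusted p under 0.05, 30 of them with DESeq2, 0 with limma-voom, and 7 in other alternatives. The count of genes called, 0 in the edgeR test, was 85 with DESeq2 and 1 (Crb2, adjusted p = 0.006276) without a filter on low counts. With 1 line left out it ranged from 0 to 5. The 5 without F361 peritoneal tumor were Crb2, Myrf, Stk26, Col8a1, and Postn, and the 4 without F319 ROV were Gatm, Tmem184a, Lsr, and Palm3. The count stayed 0 with RLE factors, library totals, a minimum of 50 counts in 3 lines, ovary lines alone, 11 lines in 1 fit, and mouse as a replicate block (785 at an unadjusted p under 0.05). Only 2 mice pair the lines, so the block rests on those pairs.

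Of 15553 genes, 329 did not overlap. The number was 218 with a minimum of 50 counts in 3 lines, 3583 in ovary lines alone, where 3 lines face 2, and 126 against all 8 other lines, a comparison chosen after seeing the data. With 1 line left out it ranged from 459 without F326 splenic tumor to 1513 without F361 peritoneal tumor. It was 984 without F364 ROV, 669 without F326 ROV, 878 without F319 ROV, 767 without F364 LOV, and 945 without F318 ROV. Fewer lines make separation easier by construction. The 357 genes that differed 2-fold in both same-mouse pairs became 732 with a pseudocount of 0.1 CPM and 132 with 5 CPM. With 1 library per line, differences between lines cannot be told apart from differences between cultures or preparations. A count of 0 does not exclude a low level, and 3 counts in the shallowest library correspond to 0.221 CPM.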

Other observations

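The following genes were called by DESeq2 but not by edgeR with all 7 lines, lie outside the named genes and lists, and were chosen after their values were seen. Folr1, the folate receptor, had 4.69 CPM in F364 ROV, 10.1 in F326 ROV, and 6.90 in F319 ROV, against 0 to 0.633 CPM in the Wt1-low lines and at most 0.917 CPM in libraries 8 to 11 (DESeq2 adjusted p = 9.379e-05). Stk26, a kinase that acts with the Golgi and polarity machinery, had 8.37, 6.41, and 16.3 CPM against 0.127 to 0.957 CPM. Slain1, a microtubule plus-end protein, had 2.28 to 4.88 CPM in the Wt1-high lines, 0.114 CPM in F318 ROV, and 0 counts in the other 7 lines. Cdh10, a type II cadherin, had 1.02 to 3.61 CPM and 0 counts in all 4 Wt1-low lines, but 17.8 CPM in F339 ROV and 11.9 CPM in F318 LOV. Smpd3, a neutral sphingomyelinase, had 10.7, 3.67, and 216 CPM against 1.14 to 2.53 CPM. Folr1, Stk26, Slain1, and Cdh10 had few or no counts in the Wt1-low lines. They were tested mainly through the Wt1-high lines and so had to differ, and their DESeq2 calls are a description only.

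On the lower side, Robo1, a guidance receptor, had 0.627 to 1.60 CPM against 1.77 to 5.82 CPM. Grem1, an antagonist of bone morphogenetic proteins, had 0.267 to 1.61 CPM against 272 CPM in F326 splenic tumor, 29.0 in F364 LOV, and 25.9 in F318 ROV, but only 0.295 CPM in F361 peritoneal tumor. Col12a1, a fibril-associated collagen, had 5.71, 9.41, and 30.6 CPM against 317, 43.0, 16.8, and 530 CPM in F326 splenic tumor, F364 LOV, F361 peritoneal tumor, and F318 ROV. F361 peritoneal tumor lay within the Wt1-high range for both Grem1 and Col12a1.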
